A study of Arabidopsis thaliana with 6 samples.

Results

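Class III peroxidases are secreted plant haem enzymes that act in the cell wall. They use hydrogen peroxide to oxidise phenolic compounds and wall proteins, which cross-links lignin, suberin and extensins and stiffens the wall, and they can also make reactive oxygen species that loosen it. In roots, members of the family are known for work in root hairs, in the Casparian strip of the endodermis and in lignifying xylem. The family was taken here as 60 listed loci of the PRX series, and 52 of them were found by locus ID among the 20423 genes of the deposited expression table. AT1G24110, AT3G03670, AT3G17070, AT4G17690, AT5G06720 (PA2), AT5G19880, AT5G58390 and AT5G58400 had no row in that table.

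Roots of wild type Arabidopsis thaliana Col-0 seedlings, a standard laboratory accession, were collected 3 days after germination. The IAA group had spent 6 h in liquid 1/2 MS medium that held 1 µM of IAA (the natural auxin indole-3-acetic acid), and the Control group 6 h in the same medium without it. The labels give 3 libraries per group, each from roots of many seedlings pooled together, so a value describes whole roots and not a cell type. The question was which genes respond to auxin at this late time.

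The values analysed are the authors' mean normalised read counts per group, called means below. Values of single libraries were not analysed here, and the authors' own p-values, deposited with the means, were not used. No mean is therefore given with an SD and no difference with a test between replicates, and "lower" and "higher" describe the size of a difference between both groups' means. A gene was called when its means differed by at least 2-fold and their average over both groups was at least 10. In the Control group 100% of 3358 low means, and in the IAA group 100% of 2467, lay on whole-number sums of 2 steps (0.590 and 0.635 in Control, 0.367 and 0.425 in IAA), within 0.0055. Dividing by the middle of these steps gave the approximate number of reads behind a mean, about 1502022 reads in all for Control and 2205361 for IAA. The 95% counting intervals below are exact conditional binomial intervals from those reads and cover counting error only, not the spread between seedlings or libraries. How many libraries stand behind each mean could not be settled, since each group had 2 steps and 3 labelled libraries.

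A larger share of the family than of all genes was lower after IAA, but not a larger share higher. Of the 38 members past the minimum mean, 21 were at least 2-fold lower after IAA and 4 were at least 2-fold higher, while 13 differed by less. The 21 include both AT1G05240 and AT1G05250 (PRX2), whose rows are the same. Among all 11139 genes past the same minimum, 11.1% were at least 2-fold lower and 13.0% at least 2-fold higher, against 55.3% and 10.5% of the peroxidases. At least 4-fold lower were 17 members, 44.7% of the 38, where the background was 3.24%. The median log2 fold over the members was -1.78, with quartiles of -2.79 and 0.22. Over all genes past the minimum the median was -0.01 and the quartiles were -0.50 and 0.54. The counting interval of the ratio lay wholly under 1 for 26 members and wholly over 1 for 9 (background 24.2% and 24.7%). It held 1 for the other 3, which were PRXR1, AT2G35380 and AT3G28200.

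**Figure D1:**
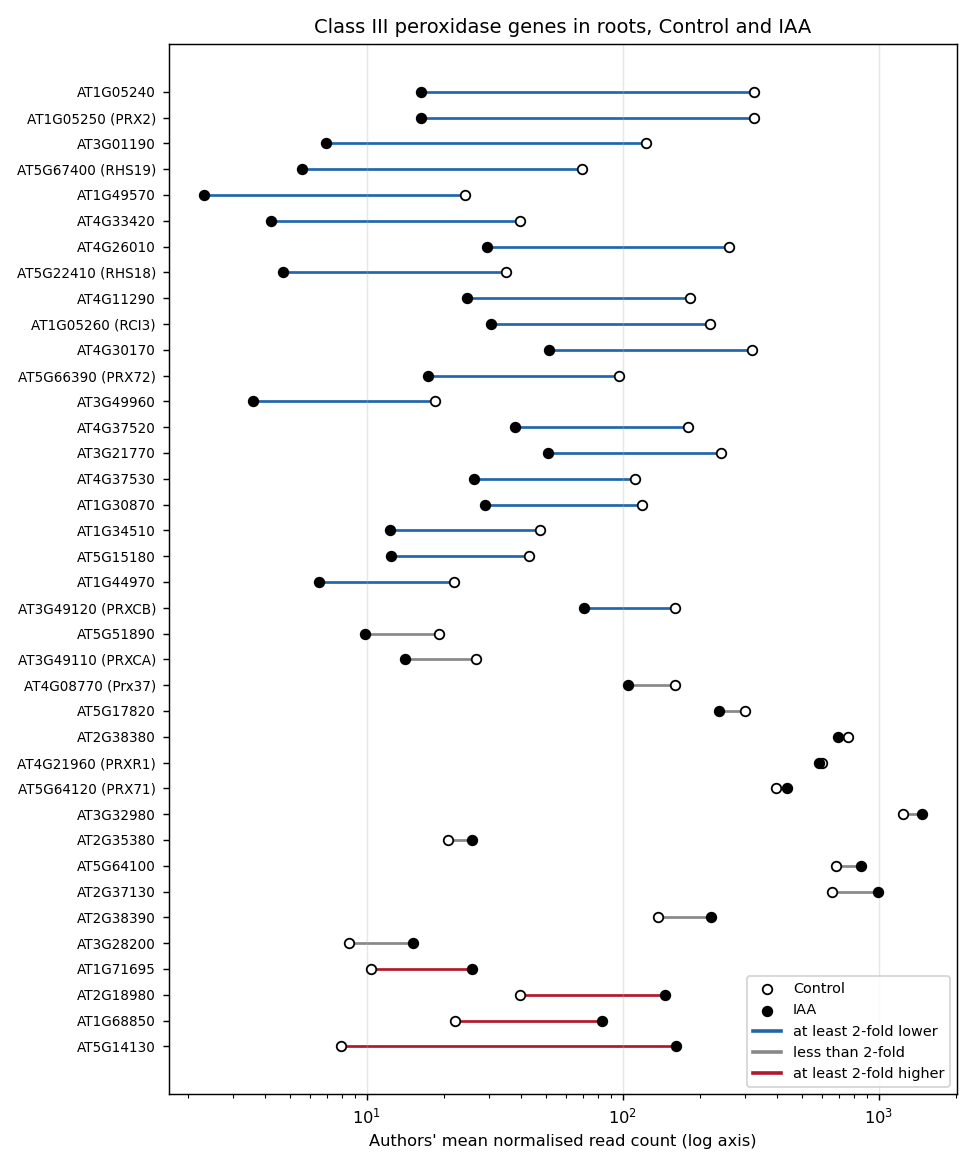
Authors' mean normalised read count (log axis) of the 38 peroxidase genes past the minimum mean, Control as open and IAA as filled circles, joined by a line coloured by the size of the difference. The 21 blue lines at the top end well to the left after IAA, the grey ones are short and hold the most abundant genes, and the 4 red ones at the bottom run to the right.

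The summed level of the family differed by less than most of its members. The means of the 52 members summed to 8088 in Control and 6570 after IAA, a ratio of 0.812, and the family made up 0.880% and 0.752% of all normalised reads. The genes with the highest means carried the sum: the 5 highest held 48.6% of it in Control and 69.9% after IAA. All 6 members with an average of at least 300 stayed within 2-fold, and of the 18 with an average of at least 100, 9 were lower and 9 within 2-fold. An average over both groups is itself reduced by a drop, and of the 21 members with a Control mean of at least 100, 12 were lower. The 21 lower members, chosen for being lower, went from 36.6% of the family's sum to 6.98%.

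**Figure D2:**
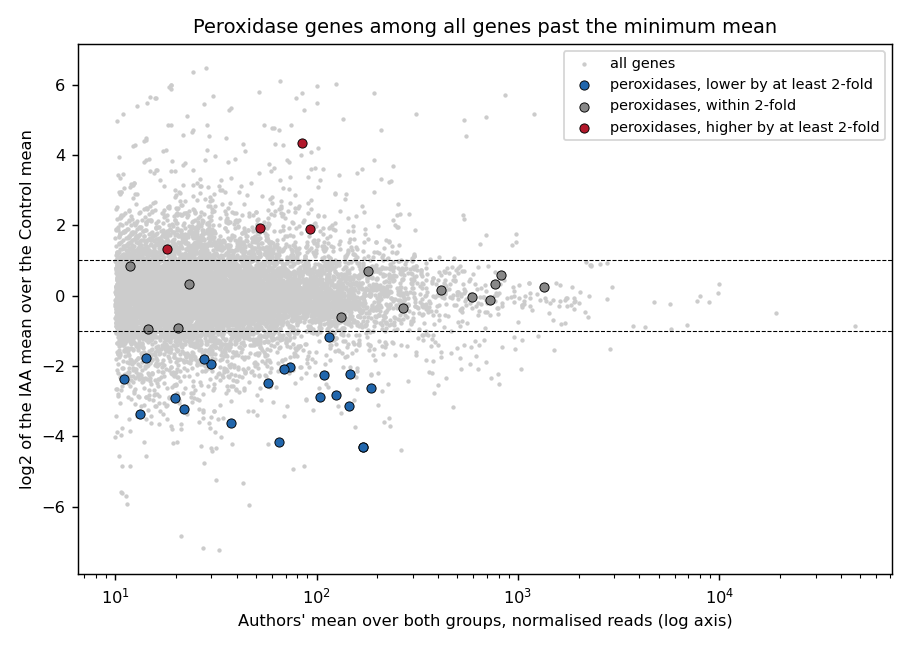
log2 of the IAA mean over the Control mean against the average of both means (log axis) for all 11139 genes past the minimum mean (grey, those at 0 in a group left out) and the 38 peroxidases (coloured), with dashed lines at 2-fold. The blue points lie between -1.18 and -4.32, and the peroxidases with the highest averages lie between the dashed lines.

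Genes with known roles in root hairs were mostly far lower after IAA. AT1G05240 and AT4G26010 act with AT5G67400 (RHS19, root hair specific) in the hydrogen peroxide balance and extensin cross-linking of growing hairs, and RHS18 is another root hair specific member. AT1G05240 had a mean of 325 in Control and 16.25 after IAA, 19.98-fold lower with a counting interval of 14.5 to 28.2. Its row is the same as that of AT1G05250 (PRX2), so this value cannot be assigned to AT1G05240 alone. AT4G26010 had means of 259.76 and 29.55, which was 8.79-fold lower (6.82 to 11.3). RHS19 (AT5G67400) had means of 69.15 and 5.56, or 12.4-fold lower (7.13 to 23.5), and RHS18 (AT5G22410) 35.03 and 4.69, or 7.47-fold lower (3.89 to 15.03). All 4 intervals stayed past 2-fold. The remaining genes of this list, AT5G64100 and AT5G39580, are tied to hair growth in the cold and had other values. AT5G64100, among the most abundant members, had means of 677 in Control and 853 after IAA, and AT5G39580 had 4.98 and 3.29, under the minimum mean. AT3G49960, which the reference annotation describes as enriched in root hair cells, had means of 18.49 and 3.59, 5.15-fold lower (2.38 to 12.3).

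The DNA upstream of these genes is shown because root hair genes often carry a root hair element. It was sought here only as the letters TGNNNGCACG, TGNNNTCACG, TGNNNNGCACG or TGNNNNTCACG on either strand, with no demand on the bases that flank them. In the 300 bases before the annotated start of transcription (genome build TAIR10.1), 4 of the 38 members past the minimum had at least 1 match, against 5.09% of 10973 coding genes past it. Of these 4, AT1G05250 (PRX2), AT3G01190 and RHS18 were among the 21 lower members and AT2G35380 was within 2-fold. The call of PRX2 rests on a row that is the same as that of AT1G05240, and it cannot be assigned to a copy. The matches are in capitals, each run is read 5′ to 3′ on the gene's own strand, and a match on the opposite strand begins with CGTG.
PRX2 (AT1G05250), chr1:1527524-1527574, minus strand: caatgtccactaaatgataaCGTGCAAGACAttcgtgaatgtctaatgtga
AT3G01190, chr3:68879-68929, minus strand: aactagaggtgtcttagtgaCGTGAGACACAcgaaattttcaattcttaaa
RHS18 (AT5G22410), chr5:7426202-7426271, plus strand: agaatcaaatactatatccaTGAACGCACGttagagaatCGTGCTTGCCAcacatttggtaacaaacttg
AT2G35380, chr2:14892371-14892420, plus strand: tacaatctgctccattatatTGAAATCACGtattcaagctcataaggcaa
RHS18 held its matches within the last 88 bases before its start, 1 on each strand. RHS19, AT4G26010 and AT1G05240 had no match in this window. The auxin response letters TGTCTC and TGTCGG, sought in the same windows on both strands, stood before 2 and 1 of the 38 members, where 12.4% and 5.48% of coding genes past the minimum had them, and before none of the 4 higher members.

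Root hair markers that are not peroxidases were lower in the same samples. Of 8 markers, in a list chosen with earlier results of these data known, 7 passed the minimum mean. All 7 were at least 2-fold lower, and the 8 summed to 347 in Control and 52.35 after IAA. Among them EXPA7, a hair expansin, had a log2 fold of -2.29, LRX1, a wall protein of hairs, -2.40, and SHV2, a hair wall protein with a GPI anchor, -5.60 with a mean of 0.43 after IAA. No marker of this list was at 0. In bulk roots fewer hair cells and less RNA per hair cell cannot be told apart, and the part of this shift in the peroxidase values was not tested. GL2, which marks non-hair cells, had means of 8.52 and 8.18, and WEREWOLF (MYB66) 9.11 and 2.01.

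Of the 60 loci, 4 were listed for a role in lignifying the Casparian strip, the diffusion barrier of the endodermis, and these 4 were lower after IAA. They are not the full set of strip peroxidases. RCI3 (AT1G05260), a cationic peroxidase first known for induction by cold, had means of 218.2 in Control and 30.58 after IAA, 7.14-fold lower (5.59 to 9.29). AT4G11290 had 182.22 and 24.61, 7.40-fold lower (5.63 to 9.93). PRX72 (AT5G66390), also a lignin peroxidase of stems, had 96.8 and 17.35, 5.58-fold lower (3.95 to 7.94). AT1G44970 had the lowest levels of this group, 21.98 and 6.47, 3.40-fold lower, and its counting interval of 1.88 to 6.71 reached below 2-fold. The group summed to 519 in Control and 79.01 after IAA.

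Other endodermis genes were lower as well, by less for most. Of 8 endodermis markers, 7 passed the minimum and 5 of these were at least 2-fold lower. The markers summed to 467 in Control and 213 after IAA, and none was at 0. CASP1, a scaffold protein that places the strip, had a log2 fold of -2.28 and ESB1, a dirigent protein needed for strip lignin, -1.32. SCR, the regulator of endodermis identity, had 0.28, and GSO1, the receptor that checks the barrier, -0.62. MYB36, the transcription factor that switches on strip genes, had means of 20.08 and 17.05. The part of the endodermis shift in the peroxidase values was not tested.

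Lignin peroxidases of the vasculature were partly lower after IAA, and none past the minimum mean was called higher. Of the 8 listed, 4 passed the minimum, and 2 of these were lower and 2 within 2-fold. Among the lower genes is PRX2 (AT1G05250), whose row is the same as that of AT1G05240 in the root hair list, so 1 measurement is counted in both lists. AT4G33420, a vascular member, had 39.74 and 4.21, 9.44-fold lower (4.78 to 19.2). AT5G51890, which the annotation ties to lignification of tracheary elements in roots, had 19.12 and 9.8, a difference of 1.95-fold (1.09 to 3.38). PRX71 (AT5G64120), a wall-stiffening member induced by low osmolarity, had 395 and 437. Under the minimum mean, PRX25 (AT2G41480) went from 12.96 to 0.79, about 21 against 2 reads, a 16.4-fold difference with a counting interval of 3.97 to 143. PER4 (AT1G14540), PRX52 (AT5G05340) and AT2G22420 all had means under 6 in both groups. The 5 xylem markers past the minimum had log2 folds between -0.52 and -0.96, and none reached 2-fold, while the marker VND7 was listed at 0 in Control and at 0.37 after IAA.

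PRXCA and PRXCB make the apoplastic oxidative burst against pathogens and act in root cell elongation. PRXCB (AT3G49120) had means of 159.61 and 70.39, 2.27-fold lower with an interval of 1.87 to 2.76. PRXCA (AT3G49110) had 26.74 and 14.08, a 1.90-fold difference (1.19 to 3.02). The counting intervals of this pair overlapped. Among targets of UPB1, a transcription factor that sets the border between dividing and elongating cells through peroxidases, AT4G11290 is described above, and AT5G17820 had 301 and 237, a 1.27-fold difference (1.12 to 1.43). UPB1 itself had means of 19.03 and 19.51.

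A further group of lower members has no listed role here. AT3G01190 had means of 123 and 6.89, 17.9-fold lower (11.1 to 32.0), the largest fold among the lower members after that of AT1G05240 and PRX2. AT4G30170, at 320 in Control and 51.47 after IAA, was 6.21-fold lower (5.12 to 7.59), and AT3G21770, at 241 and 50.93, was 4.73-fold lower (3.86 to 5.80). AT1G49570 had 24.11 and 2.32, 10.4-fold lower on about 39 and 6 reads (4.22 to 29.0). The neighbours AT4G37520 and AT4G37530 were 4.76-fold and 4.26-fold lower, from 180 to 37.76 and from 111 to 26.08. AT1G30870 (119 and 28.93), AT1G34510 (47.54 and 12.31) and AT5G15180 (43.01 and 12.42) were 4.11-fold, 3.86-fold and 3.46-fold lower. All but PRXCB and AT1G44970 of the 21 lower members had counting intervals wholly past 2-fold.

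**Figure D3:**
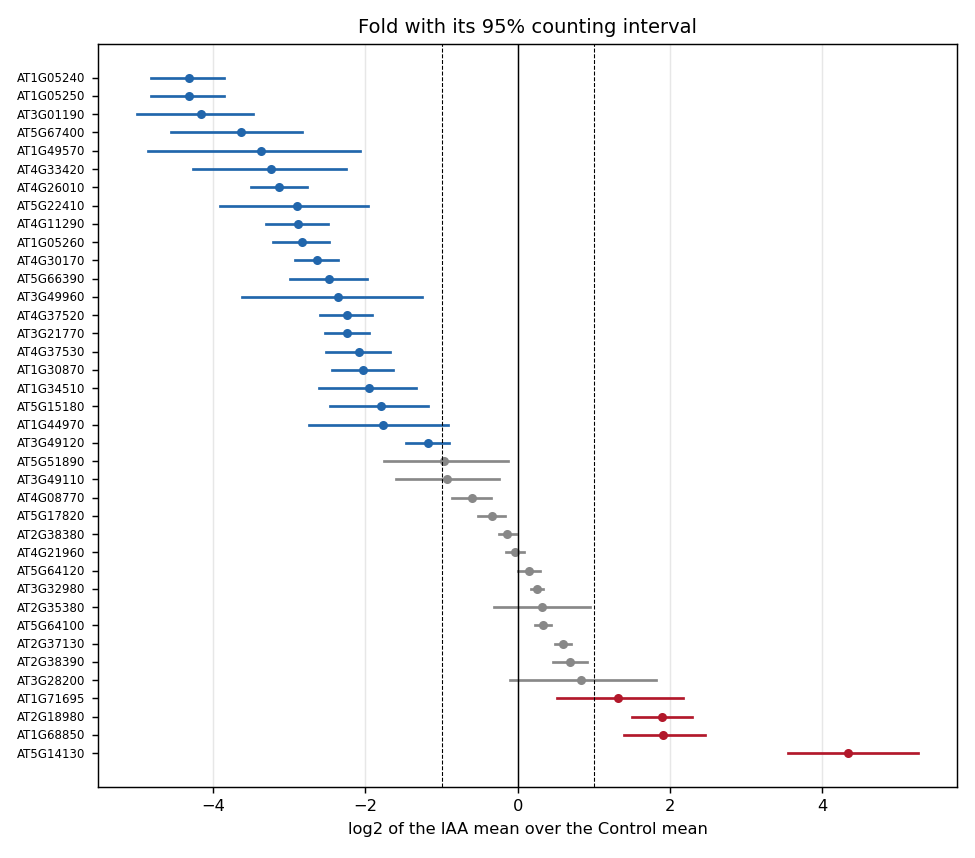
log2 of the IAA mean over the Control mean for the 38 members past the minimum mean, as points with 95% counting intervals (horizontal bars, counting error only), and dashed lines at 2-fold. The bars of 19 lower members end left of the lower dashed line, and 3 of the 4 higher members start right of the upper one.

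The most abundant peroxidases, 6 with an average of at least 300, stayed within 2-fold between the groups. AT3G32980 had the highest means, 1237 in Control and 1467 after IAA, 1.19-fold higher. AT2G37130, which the annotation ties to defence against fungi, had 657 and 993, 1.51-fold higher. AT2G38380 had 759 and 691, and PRXR1 (AT4G21960) 599 and 585. Prx37 (AT4G08770), expressed in vascular bundles, was less abundant and also within 2-fold, at 159 and 105. Other members with averages above that of Prx37, such as AT4G30170, were lower. Per length of the annotated transcript the Control order was AT3G32980 at 803 normalised reads per kilobase, AT5G64100 at 470, AT2G37130 at 457, AT2G38380 at 454, PRXR1 at 327 and PRX71 at 294. The 95% counting intervals (exact Poisson) of AT5G64100, 443 to 499, AT2G37130, 430 to 485, and AT2G38380, 429 to 480, overlapped, so their order is not resolved. The intervals of PRXR1, 307 to 348, and PRX71, 272 to 318, overlapped too, as did those of PRX71 and AT4G30170. AT4G30170 followed at 259 per kilobase (237 to 282) and stood at 41.7 after IAA, while the first 6 lay between 320 and 952 per kilobase after IAA.

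Among the members past the minimum mean, 4 were at least 2-fold higher after IAA. That is 10.5% of them, no more than the 13.0% among all genes past the minimum. AT5G14130 had a mean of 7.93 in Control, about 13 reads, and 161 after IAA, about 407 reads, 20.3-fold higher with an interval of 11.7 to 38.4. AT1G68850 had 22.02 and 82.99, 3.77-fold higher (2.63 to 5.51), and AT2G18980 had 39.52 and 146, 3.71-fold higher (2.82 to 4.87). AT1G71695 had 10.33 and 25.77, 2.49-fold higher, and its interval of 1.43 to 4.504 reached below 2-fold. Their sum went from 79.8 to 416, less than the level of PRX71 alone.

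**Figure D4:**
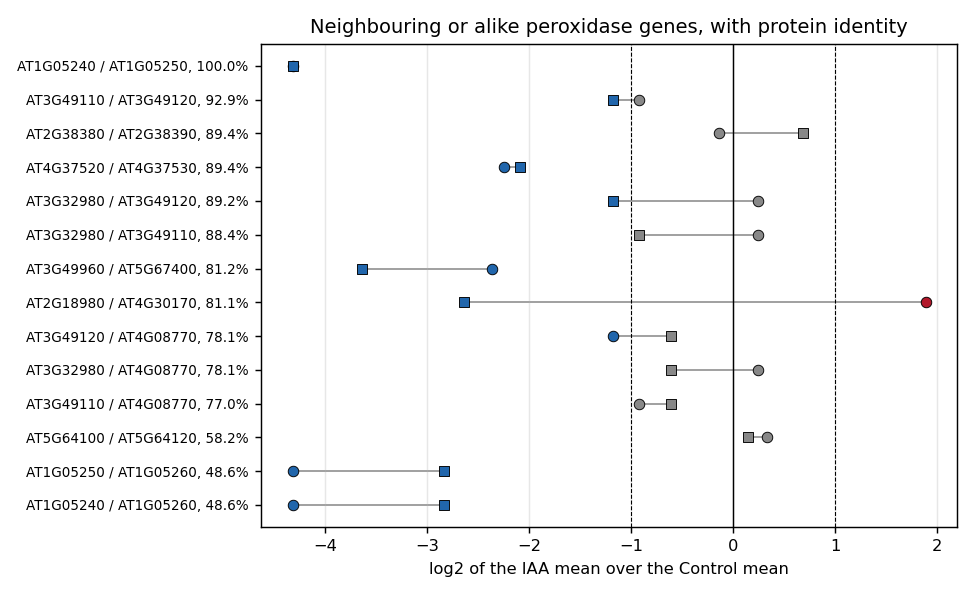
log2 of the IAA mean over the Control mean for pairs of members that are neighbours on a chromosome or share at least 75% of aligned residues, with the first gene of each label as a circle, the second as a square and the protein identity in the label. The pair AT2G18980 and AT4G30170, with 81.1% identity, spans 2-fold on both sides, and the pair AT1G05240 and AT1G05250 falls on 1 point.

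Alike members could move apart. AT2G18980, 3.71-fold higher, and AT4G30170, 6.21-fold lower, share 81.1% of 323 aligned residues, and their counting intervals lie on opposite sides of 1. In the PRXC group, AT3G32980 shares 89.2% of residues with PRXCB and 88.4% with PRXCA, and had a log2 fold of 0.25 where those had -1.18 and -0.93. The neighbours AT2G38380 and AT2G38390 share 89.4%, and AT2G38390, tied by annotation to the response to salt, had means of 138 and 221, 1.61-fold higher (1.38 to 1.89), against 1.098-fold lower for AT2G38380 (1.02 to 1.18). AT4G37520 and AT4G37530, with 89.4% identity, had log2 folds of -2.25 and -2.09. AT3G49960 and RHS19, with 81.2%, were both lower, at -2.36 and -3.64. In the cluster of AT5G64100, AT5G64110 and PRX71, AT5G64110 had means of 10.97 and 3.84, and the other members had log2 folds of 0.33 and 0.15.

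The rows of AT1G05240 and AT1G05250 were the same in both groups, so they are 1 measurement. Both genes lie on chromosome 1 of TAIR10.1, AT1G05240 at 1520278 to 1523023 on the plus strand and PRX2 at 1525601 to 1527360 on the minus strand, and their coding sequences of 978 bases had 0 differences. Of all 60-base stretches in the annotated exons, 0% were found once in the genome for PRX2 and 41.8% for AT1G05240, which has the longer annotated transcript. The means of both therefore cannot be assigned to a copy, nor to root hairs rather than lignin. Among 3218 genes with means of at least 50 in Control and 10 after IAA, 14 sets of rows were identical, and 9 of these were organellar. Every other member in the table had at least 93.9% of its exon stretches found once. With 1 member kept per pair of at least 90% identity, which leaves out PRX2 and PRXCB, 19 lower members were counted. With the shared row counted once, an alternative chosen after seeing the data, the family summed to 7763 in Control and 6553 after IAA, a ratio of 0.844.

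The coding stretch around the distal catalytic histidine is shown for the shared copy, for the alike pair that differed in direction, for the most raised member and for the most abundant one. Capitals mark the 15 bases that end with the codons for this histidine, the aspartate and the cysteine after it. Each run is spliced coding sequence 5′ to 3′, read from TAIR10.1, and its coordinates span the intron it crosses.
AT1G05240 and PRX2 alike, chr1:1521370-1521518, plus strand for AT1G05240: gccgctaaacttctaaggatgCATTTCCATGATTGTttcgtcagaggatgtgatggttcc
AT4G30170, chr4:14763093-14763307, plus strand: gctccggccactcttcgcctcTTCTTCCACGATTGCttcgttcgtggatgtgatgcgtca
AT2G18980, chr2:8234635-8235129, minus strand: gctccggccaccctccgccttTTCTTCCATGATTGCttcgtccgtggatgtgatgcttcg
AT5G14130, chr5:4559687-4559842, minus strand: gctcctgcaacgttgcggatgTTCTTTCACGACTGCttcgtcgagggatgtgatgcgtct
AT3G32980, chr3:13527793-13529766, minus strand: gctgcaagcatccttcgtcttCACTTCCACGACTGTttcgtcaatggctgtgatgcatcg
Over these 60 bases AT4G30170 and AT2G18980 had 7 differences, while AT1G05240 differed from each of the other 4 genes at 20 to 24 bases.

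Features that the means do not use are given as a description, with no test between the called groups. The isoelectric point computed from the translated precursor had a median of 8.74 over the 21 lower members (6.17 to 9.95), 7.62 over the 13 within 2-fold (5.28 to 9.58) and 6.88 over the 4 higher ones (5.05 to 9.64). The ranges overlapped widely, and 14 of 21, 6 of 13 and 2 of 4 had a value over 8. Precursor length was alike, with medians of 329, 336 and 347 residues. Lower members lay on chromosomes 1, 3, 4 and 5, with 7, 4, 6 and 4 genes. Chromosome 2 had none, but 4 of its 9 measured members were under the minimum mean and could not be called. PRX25, among those under the minimum, was 16.4-fold lower. Past the minimum, chromosome 2 had 4 members within 2-fold and 1 higher. Shares over all genes of each chromosome were not computed.

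The 14 members under the minimum mean rest on few reads. AT5G19890 had 0.59 in Control, about 1 read, and 7.73 after IAA, about 20 reads, a ratio of 13.1 with a counting interval of 2.07 to 537. AT1G14550 was at 0 in Control, which allows a mean of up to 1.84 from 3 reads, and at 0.37 after IAA. AT5G64110 was 2.86-fold lower (1.22 to 6.74). Besides those of AT5G19890, AT5G64110 and PRX25, no counting interval among the 14 lay on 1 side of 1.

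Enzymes that make or remove the hydrogen peroxide used by peroxidases gave mixed counts. Of 10 NADPH oxidase genes, which supply superoxide to the wall, 8 were in the table and 7 passed the minimum, with 3 lower and 1 higher. RHD2, the oxidase of root hair tips, had means of 62.81 and 9.68. It is also among the root hair markers above, so its measurement is counted in both lists. RBOHB had 87.37 and 8.96, and AT4G25090 25.24 and 7.07. AT1G19230 had 37.98 and 130, 3.42-fold higher, while RBOHD had 48.67 and 33.69. None of the 4 superoxide dismutase genes past the minimum reached 2-fold, and CSD1, the most abundant of them in Control, had a log2 fold of -0.71. Of 12 catalase, ascorbate peroxidase and glutathione peroxidase genes past the minimum, 3 were lower: CAT2 at -1.13, CAT3 at -1.85 and GPX2 at -1.25 on the log2 scale. APX1, the main cytosolic ascorbate peroxidase, had -0.32.

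Laccases, copper enzymes that also polymerise lignin, went both ways. Of the 8 past the minimum, 4 were lower and 1 was higher. LAC7 had means of 105 and 29.55, LAC3, a laccase of the Casparian strip, 91.54 and 19.3, LAC17, a lignin laccase of stems, 44.77 and 18.76, and LAC9 30.82 and 14.62. LAC13 had 2.4 and 22.26, 9.28-fold higher. Its average of 12.33 was little past the minimum, and with a minimum mean of 20 no laccase was called higher. Among transcription factors of root hair growth, all under the minimum mean, RSL4 had 9.11 and 1.58, RSL2 5.35 and 1.83, and RHD6, which acts before them, 6.03 and 5.06.

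**Figure D5:**
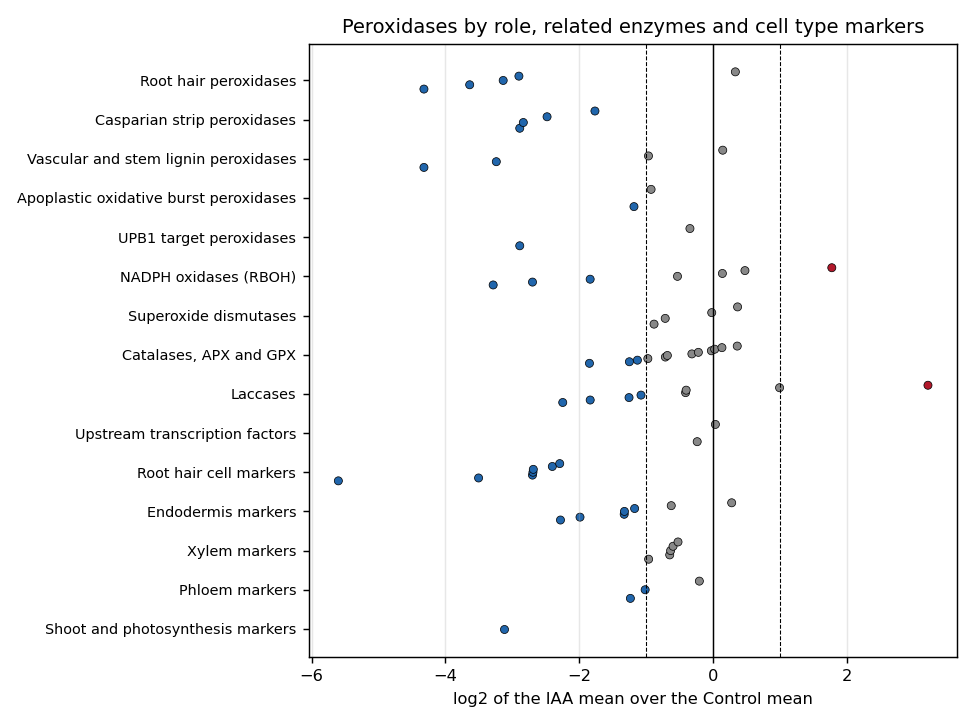
log2 of the IAA mean over the Control mean for each gene past the minimum mean in the lists of peroxidase roles, related enzymes and cell type markers (1 point a gene, blue lower, red higher, grey within 2-fold, dashed lines at 2-fold). The Casparian strip peroxidases and root hair markers lie wholly left of the lower line, whereas xylem markers and superoxide dismutases lie between the lines.

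Other tissue markers were also read. Of the 3 phloem markers past the minimum, SUC2 had a log2 fold of -1.01, SEOa -1.23 and SEOR1 -0.20. Root cap markers were all under the minimum and did not share a direction. SMB had means of 2.45 in Control and 14.75 after IAA, NAC015 0 and 2.8, NAC070 1.27 and 1.1, and FEZ 1.27 and 0. Of 4 photosynthesis genes, which mark shoot tissue, only CAB2 passed the minimum mean and was lower, with means of 28.73 and 3.29. The other 3 were under it and also had smaller means after IAA. RBCS1A had 16.0 and 1.28, LHCA1 7.89 and 1.95, and LHCB2.1 4.31 and 1.22. Together the 4 summed to 56.93 in Control and 7.74 after IAA. The part of these genes in the peroxidase values was not tested.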

How the data were processed

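Roots of 2 groups, Control and IAA, with 3 labelled libraries each, were compared. According to the study's methods, SOLiD reads of 60 bases were aligned to TAIR10 by SHRiMP, htseq-count counted those with a unique place per gene, and DESeq served for the authors' comparison. The signal values that the authors deposited are mean read counts per group after division by size factors, without values per library. The other 4 columns of the deposited table hold the authors' fold change, its log2, the p-value and the adjusted p-value, and were not used. They are the authors' own comparison of the libraries. No test was run here on the means, and members were called by size as given in the report. Doubt about how shared reads were counted touches AT1G05240 and AT1G05250.

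Members and gene lists were chosen with earlier results of these data known. Genes named are members past both limits, with an average of at least 100, with a listed role or paired with a named member. From other lists up to 4 genes per direction past both limits were named, or any gene of lists of up to 12. Gene models, identities (global alignment, BLOSUM62) and upstream letters came from RefSeq's TAIR10.1, where all 60 loci were found. The step search was also run on data simulated with the fitted steps and counting error alone. Such data cannot settle how many libraries were averaged. Python 3.11.15, pandas 2.3.3, SciPy 1.17.1, Biopython 1.88 and matplotlib 3.10.9 were used. Alternatives were other folds and minimum means, 1 added to each mean, other scaling, near-identical members counted once, sums without abundant members and other read steps.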

Additional observations from a re-analysis of the deposited data

How the results depend on the processing

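No paired analysis was possible because the values are means per group, and for the same reason no library could be left out. The lower members numbered 17 to 25 under the alternatives except with a minimum mean of 50, where they numbered 13. The higher members numbered 7 with a 1.5-fold limit, 1 with a 4-fold limit and 7 with no minimum mean. The median log2 fold over members was -0.94 with no minimum and -1.18 with a minimum of 50. The ratio of sums was 0.657 without the 3 most abundant members in Control. Of the other pathway and marker genes, 55 of 91 passed the minimum, and 26 were called, 24 lower and 2 higher. Among all genes past it, 11.1% were lower and 13.0% higher. With a 4-fold limit 12 of these pathway and marker genes were called, with no minimum 52, with a minimum of 20 17, and with a minimum of 50 8. The number of genes that could be called changes with the minimum. Shares over all genes at 1.5-fold or at the other minimum means were not computed. Under 1 added to each mean, group sums and median centring, all 38 members past the minimum kept their side of 2-fold and their direction where called. With either step of each group, 35 counting intervals lay off 1. A list's minimum mean and fold limit set how many genes can be called, so these counts follow from those settings.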
